A study of Mus musculus with 40 samples.

Results

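Malat1, Neat1, Meg3, Rian, Mirg, Miat, Snhg11 and Kcnq1ot1 are long noncoding RNAs that are retained in, or best known from, the nucleus. These 8 of the 41388 genes counted were chosen by name, and 7 of the 8 could be tested. They were followed through 4 fractions of mouse forebrain at postnatal day 21, in 2 lines and in 5 pools of animals per line. The whole homogenate (WCH) holds RNA of all cells. Translating ribosome affinity purification (TRAP) pulls down an EGFP-tagged ribosomal protein (EGFP/Rpl10a) made only where Cre is active. The synaptoneurosomal fraction (SNF) is enriched for pinched-off synapses and was also prepared from all cells, and TRAP on that fraction gives SynapTRAP (ST), the tagged ribosome-bound RNA of the SNF. The RBP4 line carried Tg(RBP4-cre)KL100Gsat/Mmcd, which drives Cre in pyramidal neurons of layer 5, and the VGAT line carried Slc32a1tm2(cre)Lowl/J, which drives it in any GABAergic neuron. Both lines carried the same Cre-dependent reporter, both sexes were pooled, and no mice without a Cre were among the groups used here. The tissue is labelled as cortex, and the methods describe a rapid dissection of the forebrain. In bulk samples such as these, fewer cells of a type and less RNA per cell cannot be told apart.

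RNA that stays in the nucleus is not bound by cytoplasmic ribosomes and is not carried to synapses. Malat1 is an abundant RNA of nuclear speckles, and Neat1, its neighbour on chromosome 19, is the scaffold of paraspeckles. Meg3, Rian and Mirg are transcribed in the same direction from the maternal chromosome of the imprinted Dlk1-Dio3 domain on chromosome 12, where Rian holds small nucleolar RNAs and Mirg holds a large cluster of microRNAs. Miat, also called Gomafu, forms nuclear bodies of its own in neurons, Kcnq1ot1 is a long antisense RNA of the paternal chromosome that silences neighbouring genes in cis, and Snhg11 is a host gene of small nucleolar RNAs that neurons express.

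The microRNAs that the Dlk1-Dio3 members hold were placed by RefSeq coordinates (GRCm38.p6). Meg3 spans 3 mature microRNAs from 2 hairpins, Rian spans 6 from 3, and Mirg spans 26 from 14 with 25 distinct seeds. Only 8 of the mature microRNAs in Mirg, from 5 hairpins, lie in exons, beside 3 of 3 in Meg3 and 0 of 6 in Rian. The mature products were not measured, and the counts of the host genes are not read as their levels. The sequences below, with the seed (bases 2 to 8) in capitals, show 1 microRNA each from Meg3 and Rian and 4 from Mirg, the last pair being the 2 that share a seed.
miR-770-5p in Meg3: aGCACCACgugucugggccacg
miR-370-3p in Rian: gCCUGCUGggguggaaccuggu
miR-134-5p in Mirg: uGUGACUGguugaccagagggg
miR-485-3p in Mirg: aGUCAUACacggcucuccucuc
miR-453 in Mirg: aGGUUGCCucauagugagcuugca
miR-496a-5p in Mirg: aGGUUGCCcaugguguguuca

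The libraries were primed with oligo(dT), which can also anneal to runs of A inside an RNA, and so the longest run of A in each member was read from GENCODE M21 (GRCm38). It was 41 bases in Kcnq1ot1, 16 in Meg3, 15 in Rian, 12 in Malat1, 9 in Snhg11, 7 in Neat1, 5 in Mirg and 4 in Miat. A run of at least 10 A was present in 10172 of 141767 annotated transcripts (7.18%), searched on the transcribed strand. Counted by transcript, it was in 1 of 4 for Malat1, 1 of 11 for Meg3, 2 of 20 for Rian and 1 of 1 for Kcnq1ot1. It was in 0 of 4 for Neat1, 0 of 12 for Mirg, 0 of 6 for Miat and 0 of 5 for Snhg11. Lengths were not matched, and whether the members are rich in such runs was not tested. Windows of 30 bases at 3 of these runs are given in the direction of transcription, with the run in capitals (the Kcnq1ot1 window holds only the start of its run), since Malat1 and Kcnq1ot1 carry most of the comparisons below and the Meg3 window is in the region that is duplicated in the reference.
Malat1, chr19:5795979-5796008, minus strand: cctagctttAAAAAAAAAAAAgcaaaagac
Meg3, chr12:109545810-109545839, plus strand: caagaccAAAAAAAAAAAAAAAAcaaaaac
Kcnq1ot1, chr7:143226968-143226997, minus strand: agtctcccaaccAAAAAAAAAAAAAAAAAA

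Where each member lies bears on what its counts hold (coordinates in GRCm38, as deposited). Malat1 is a single exon of 6983 bases (chr19:5795690-5802672, minus strand) and Neat1 is counted over 20771 bases (chr19:5824708-5845478, minus strand). Meg3 has 8 exons (chr12:109541001-109571726, plus strand), Rian has 20 (chr12:109603940-109661716, plus strand), and Mirg follows them (chr12:109729764-109749460, plus strand). Miat is at chr5:112213228-112229395 on the minus strand, Snhg11 at chr2:158375638-158386145 on the plus strand, where GENCODE M21 gives it as protein coding, and Kcnq1ot1 at chr7:143212155-143296549 on the minus strand. The kit does not mark strand, and reads on bases shared with another gene were not counted, which touches 1499 bases of Meg3 (1228 of them antisense), 1119 of Kcnq1ot1 (all antisense), 1109 of Miat (390 antisense), 511 of Malat1 (425 antisense), 478 of Rian, 433 of Mirg, 384 of Neat1 and 133 of Snhg11.

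Rian could not be measured. A single read was assigned to it over all 40 libraries, in replicate 2 of VGAT TRAP. The assembly the authors used holds a patch contig that repeats a stretch of chromosome 12, with features from 109452823 to 109690052 and Rian among them, and a read that matches both copies is not unique. Of 49 features on that patch 48 had no count, and of 53 genes inside the same stretch of chromosome 12, 50 had none. Many of these are short RNA genes of 68 to 124 bases, for which no count need not mean lost reads. In the whole series 30672 of 41388 genes had any count. Of 6 longer genes in the stretch 4 had none, namely Dlk1 (5657 bases), Rtl1 (6357), Gm26945 (2011) and Gm26906 (1228). The others are Rian and Meg3. Whether reads were lost to the second copy was not tested. Meg3 lies in this stretch too, so that its counts hold only reads that match a single copy, and a further Meg3 feature of 990 bases on the patch took 434 reads in all. The values of Meg3 are comparable between libraries but not with other genes. Mirg lies outside the patch.

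Libraries held between 14259535 and 22037703 counts (median 17143957), and values below are counts per 1000000 (cpm) of a library after 390 mitochondrial, rRNA and tRNA genes were left out. Mitochondrial genes took 0.0584% to 41.9% of the counts, with the top shares in SNF replicate 3 of both lines (40.2% and 41.9%). Slc32a1, the gene of VGAT itself, checks the lines against their labels and was 48.4 to 77.2 cpm in VGAT TRAP and 1.49 to 4.99 cpm in RBP4 TRAP. In RBP4 ST the library labelled replicate 4 had 49.9 cpm of it against at most 19.7 in the others. The 7 markers of GABAergic neurons, Slc32a1 among them, summed to 663 cpm in that library. Their sums were 506 to 1290 cpm over RBP4 ST and 1159 to 4937 cpm over VGAT ST. By that sum the library was below each VGAT ST library, and its label was not tested further. Directions drawn from RBP4 ST include that library. Some libraries stood apart for the noncoding RNAs as a group. RBP4 TRAP replicate 5 was the highest of its group for 7 of 7 members, SNF replicate 3 the lowest for 7 of 7 in each line, and in VGAT ST replicate 3 was the lowest and replicate 5 the highest for 7 of 7. In RBP4 TRAP replicate 5 the 6 oligodendrocyte markers summed to 5508 cpm, against 388 to 929 cpm in the other 4 libraries, and all 23 glial and endothelial markers to 7197 against 768 to 1569, while 5 markers of layer 5 and other excitatory neurons were at their lowest, at 827 cpm. The 6 astrocyte markers summed highest in SNF replicate 3, to 24784 and 24494 cpm. The part of these differences in the results below was not tested, and values without a pool are given where leaving it out changed a call or moved a called fold change of a member by over 1.5 times. Leaving out a replicate removed all 4 libraries of that pool. Values are listed in the order of replicates 1 to 5, and adjusted p are Benjamini-Hochberg values over all genes tested. Errors of log2 fold changes are approximate standard errors (SE). They were derived as the absolute log2 fold change divided by the root of edgeR's F statistic, and are not estimates that edgeR reports.

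Per length, Malat1 was the most abundant member in WCH and Snhg11 came next. In RBP4 WCH its 5 libraries had 34101, 18995, 17231, 18043 and 14901 cpm, and in VGAT WCH 21706, 10982, 15869.8, 18391 and 19064 cpm. Replicate 1 of the RBP4 line stood well above the others, and VGAT replicate 2 was the lowest. Scaled to gene length, the RBP4 WCH means ran from 2958 ± 1098 RPKM for Malat1 and 478 ± 201 RPKM for Snhg11 through 9.20 ± 0.878 for Miat, 1.86 ± 0.438 for Mirg and 1.12 ± 0.192 for Kcnq1ot1 down to 0.460 ± 0.230 for Neat1 (SD, n = 5). The paper reports a heavy bias of reads toward the primed end of RNAs, so dividing by full length can understate long RNAs. In cpm the RBP4 WCH mean was 94.8 for Kcnq1ot1, above 85.5 for Miat and 13.6 for Mirg, and 9.56 for Neat1. Together the 8 genes took 1.95% to 3.70% of the counts of RBP4 WCH and 1.24% to 2.35% of those of VGAT WCH, but 0.130% to 0.754% and 0.0459% to 0.359% in TRAP. By group means WCH of one line or the other ranked first for Malat1, Meg3, Mirg, Miat and Snhg11, while VGAT ST ranked first for Neat1 and Kcnq1ot1. Along that order of 8 groups, the values of neighbouring groups overlapped in 7 of 7 cases for each member but Kcnq1ot1, with 6 of 7. For Kcnq1ot1 the RBP4 line had a higher mean in SNF (137 cpm) than in ST (118 cpm). Its VGAT ST mean of 275 cpm stood beside a median of 90.2 cpm.

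**Figure D1:**
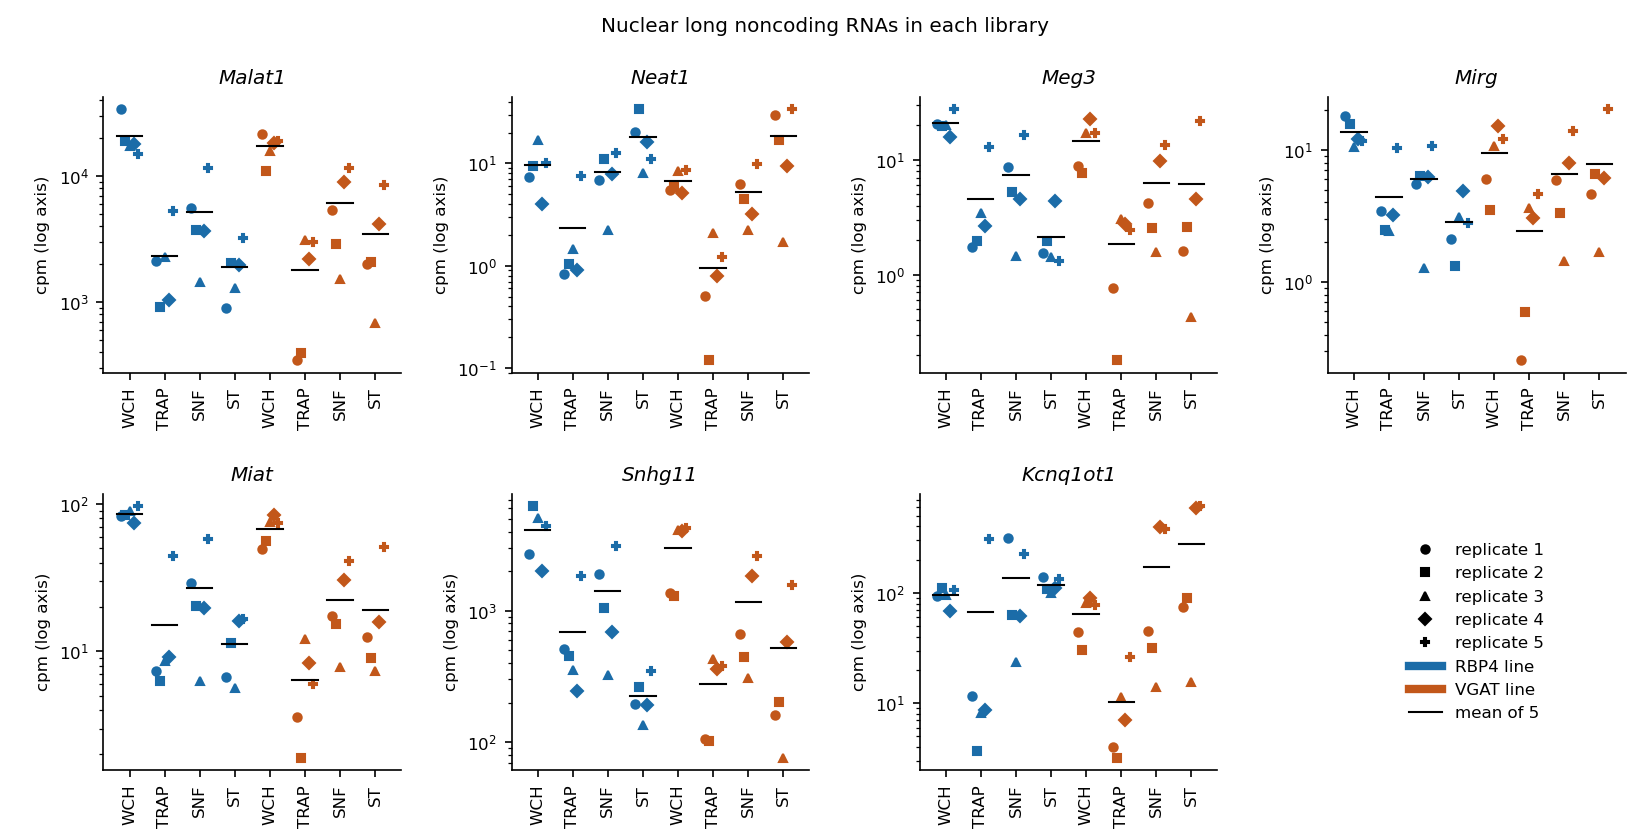
Level of each of the 7 measurable noncoding RNAs in the 40 libraries, in cpm on a log axis, by fraction and line. Each point is a library of a pool and each bar the mean of 5. By group mean, WCH of one line or the other is highest for Malat1, Meg3, Mirg, Miat and Snhg11, and VGAT ST for Neat1 and Kcnq1ot1. Within the RBP4 line the Kcnq1ot1 mean is highest in SNF. Kcnq1ot1 ranges from 3.71 to 305 cpm within RBP4 TRAP alone.

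Comparing TRAP with WCH asks which RNAs are depleted when only ribosomes of one neuron type are kept. TRAP was lower for 6 of the 7 members in the RBP4 line and for 7 of 7 in the VGAT line. None was higher, where 8.37% and 21% of all genes tested were. Of all genes tested, 31.5% were lower in RBP4 TRAP and 41.8% in VGAT TRAP at the same threshold (edgeR's quasi-likelihood test, adjusted p at most 0.05). The median log2 fold change of the members was -2.20 and -2.99, beside -0.34 and -0.31 over all genes tested. Under TMM scaling the medians over all genes moved by 0.29 and 0.25, and the genes called higher and lower went from 1427 and 5372 to 3296 and 3815 in the RBP4 line and from 3561 and 7106 to 4987 and 5530 in the VGAT line.

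Malat1 in TRAP was 2103, 908, 2277, 1029 and 5310.1 cpm in the RBP4 pools and 344, 391, 3134, 2188 and 2972 cpm in the VGAT pools. No TRAP library of either line reached the lowest WCH library of that line. The log2 fold change was -3.15 (SE 0.51, adjusted p = 6.11e-05) in the RBP4 line, a fall of 8.88-fold, and -3.25 (SE 0.67, adjusted p = 2.79e-04) in the VGAT line, a fall of 9.53-fold. Without RBP4 replicate 5 the first was -3.81 (adjusted p = 9.22e-07). As a share of WCH of the same pool, TRAP kept a median of 6.17% of Malat1 in the RBP4 line (range 4.78% to 35.6%) and 11.9% in the VGAT line (1.58% to 19.7%).

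Snhg11, the small nucleolar RNA host, fell in both lines. It was 2710.3, 6215, 5064, 2014 and 4371 cpm in RBP4 WCH and 515, 449, 355, 244 and 1851 cpm in RBP4 TRAP, and 1359.9, 1293, 4114, 4020.3 and 4223 cpm in VGAT WCH and 106, 102, 428, 362 and 382 cpm in VGAT TRAP. The groups did not overlap in either line, and in the VGAT line the share kept per pool was narrow, at 7.79% to 10.4%. The log2 fold changes were -2.58 (SE 0.54, adjusted p = 7.73e-04) and -3.44 (SE 0.75, adjusted p = 4.45e-04), the former being -3.36 (adjusted p = 7.23e-06) without RBP4 replicate 5. Miat fell from 83.2, 84.1, 89.6, 74.3 and 96.3 cpm in RBP4 WCH to 7.33, 6.29, 8.67, 9.24 and 44.0 cpm in RBP4 TRAP. In the VGAT line it fell from 49.3, 56.0, 75.8, 84.3 and 74.1 cpm to 3.57, 1.90, 12.1, 8.30 and 6.03 cpm. Miat was the steadiest member in WCH, and its groups did not overlap in either line. Its log2 fold changes were -2.50 (SE 0.51, adjusted p = 5.82e-04) and -3.41 (SE 0.52, adjusted p = 1.02e-05), the latter a fall of 10.6-fold. Without RBP4 replicate 5 the RBP4 value of Miat was -3.39 (adjusted p = 5.02e-07).

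The imprinted Dlk1-Dio3 members fell as well. Meg3 was 20.6, 19.9, 20.2, 15.9 and 27.8 cpm in RBP4 WCH and 1.73, 1.98, 3.48, 2.64 and 12.9 cpm in RBP4 TRAP. The corresponding VGAT values were 8.81, 7.70, 17.3, 22.6 and 17.3 cpm and 0.765, 0.178, 3.06, 2.75 and 2.43 cpm. Every TRAP library was below every WCH library of its line. Log2 fold changes of Meg3 were -2.20 (SE 0.53, adjusted p = 0.00230) and -2.99 (SE 0.76, adjusted p = 0.00184), the former being -2.96 (adjusted p = 9.95e-06) without RBP4 replicate 5. Mirg, the microRNA host outside the duplicated stretch, was 18.1, 15.8, 10.5, 11.99 and 11.6 cpm in RBP4 WCH and 3.46, 2.48, 2.44, 3.23 and 10.4 cpm in RBP4 TRAP, and 6.04, 3.48, 10.7, 15.2 and 12.1 and 0.255, 0.594, 3.64, 3.07 and 4.62 cpm in the VGAT line. VGAT WCH and TRAP overlapped for Mirg, at 3.48 and 4.62 cpm. Its log2 fold changes were -1.63 (SE 0.44, adjusted p = 0.00500) and -1.94 (SE 0.65, adjusted p = 0.0125). TRAP kept a median of 23.2% and 20.2% of Mirg, more than of any other member by that measure. Without RBP4 replicate 5 the RBP4 value was -2.28 (adjusted p = 1.19e-04), and without VGAT replicate 4 the VGAT value was -1.80 (adjusted p = 0.0632).

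Neat1 was rare in WCH, at 7.35, 9.33, 17.0, 4.00 and 10.2 cpm in the RBP4 line and 5.48, 5.94, 8.44, 5.19 and 8.59 cpm in the VGAT line. In TRAP it was 0.834, 1.04, 1.45, 0.910 and 7.51 cpm and 0.510, 0.119, 2.10, 0.793 and 1.22 cpm. Only RBP4 TRAP replicate 5 reached the range of WCH. The log2 fold changes were -2.03 (SE 0.56, adjusted p = 0.00649) and -2.82 (SE 0.61, adjusted p = 4.32e-04), the former being -3.14 (adjusted p = 4.52e-05) without that pool. Kcnq1ot1 was 93.3, 111, 94.9, 69.0 and 105 cpm in RBP4 WCH and 11.7, 3.71, 8.20, 8.74 and 305 cpm in RBP4 TRAP, so that 4 TRAP libraries were far below WCH and replicate 5 was far above it. Its log2 fold change was -0.49 (SE 0.82, adjusted p = 0.658) with all libraries, -3.51 (adjusted p = 3.45e-05) without RBP4 replicate 5, and -2.22 (adjusted p = 0.0278) with the pool as a block. In the VGAT line Kcnq1ot1 was 44.3, 30.3, 81.8, 90.4 and 77.4 cpm in WCH and 4.02, 3.21, 11.3, 7.03 and 26.2 cpm in TRAP, without overlap. The fall there was -2.64 (SE 0.91, adjusted p = 0.0153), and -2.37 (adjusted p = 0.0606) without VGAT replicate 4 and -3.27 (adjusted p = 0.0109) without VGAT replicate 5.

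Across pools, TRAP was below WCH of the same pool in 5 of 5 pools for each member and line except Kcnq1ot1 in the RBP4 line, with 4 of 5. WCH and TRAP did not overlap for 5 of 7 members in the RBP4 line and for 6 of 7 in the VGAT line, where 23.8% and 34.7% of all genes tested had TRAP below WCH without overlap. Glial and endothelial markers moved in the same direction. All 23 together summed to 9502 to 15037 cpm in RBP4 WCH against 768 to 7197 in RBP4 TRAP, and to 8943 to 12562 against 628 to 3533 in the VGAT line, with 1 endothelial marker at 0 in some TRAP libraries of each line. Their part in the fall of the noncoding RNAs was not tested.

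**Figure D2:**
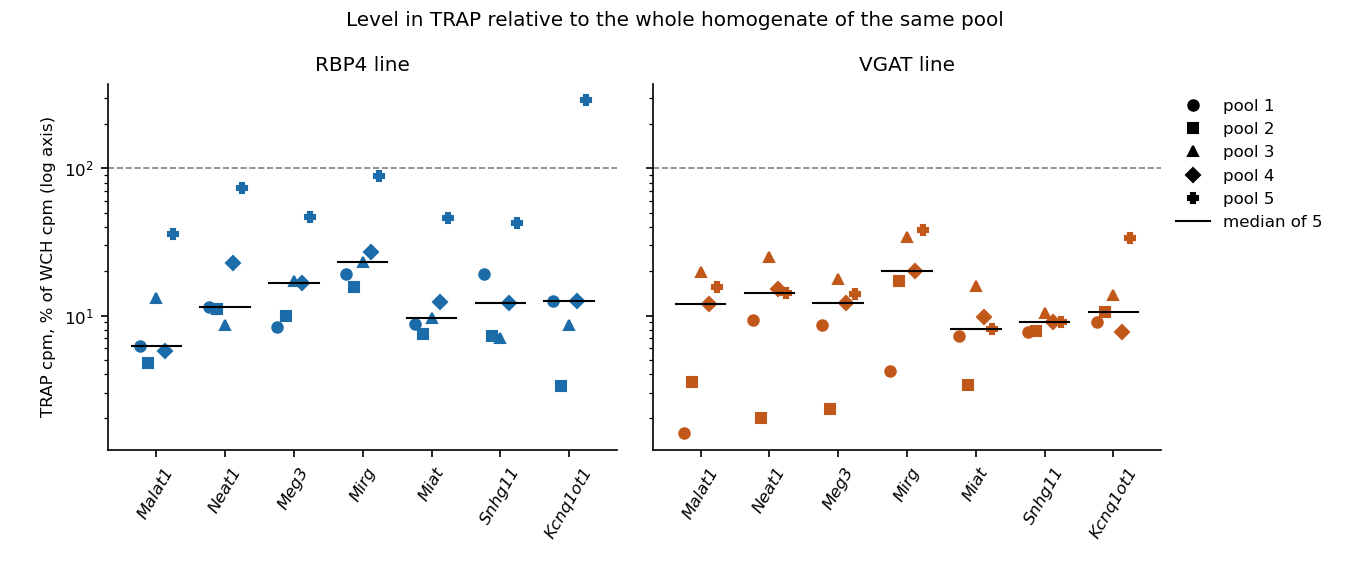
Level in TRAP as a percentage of the level in WCH of the same pool, on a log axis, for each noncoding RNA in the RBP4 line (left) and the VGAT line (right). Each point is a pool, each bar the median of 5 and the dashed line a level equal to WCH. RBP4 replicate 5 gives the highest RBP4 point for each member, from 35.6% for Malat1 to 290.0% for Kcnq1ot1, the latter being the only point above the dashed line.

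Of a list of further long noncoding RNAs, 9 (RBP4) and 10 (VGAT) were tested, 3 and 4 of them were lower and 0 and 3 higher, with a median log2 fold change of -0.63 in each. Among the 4 most abundant, Pantr1 changed by 0.31 (SE 0.29, adjusted p = 0.409) and 0.06 (SE 0.25, adjusted p = 0.839). Tug1, which has both nuclear and cytoplasmic forms, changed by -0.53 (SE 0.39, adjusted p = 0.287) and -1.08 (SE 0.31, adjusted p = 0.00456), and passed in the RBP4 line without RBP4 replicate 1. Xist, which coats the inactive X chromosome and so depends on the sexes in a pool, changed by -3.82 (SE 1.80, adjusted p = 0.0941) and -3.85 (SE 1.18, adjusted p = 0.00741), the former passing with the pool as a block (adjusted p = 0.0295), by the likelihood ratio test (0.0378) and with no filter (0.0496). Dlx6os1, transcribed beside the GABAergic regulators Dlx5 and Dlx6, moved in opposite directions, by -3.06 (SE 0.33, adjusted p = 1.05e-06) and 1.92 (SE 0.24, adjusted p = 8.10e-07). Of 6 tested largely cytoplasmic noncoding RNAs and small nucleolar RNA hosts 1 was lower in each line, and 1 (RBP4) and 2 (VGAT) were higher. Gas5 changed by -0.52 (SE 0.26, adjusted p = 0.114) and 0.26 (SE 0.20, adjusted p = 0.255), and in the VGAT line passed at 0.49 with DESeq2 and 0.51 under TMM (adjusted p = 0.0289 and 0.0391). Snhg6 was higher in both lines, by 0.63 (SE 0.19, adjusted p = 0.00997) and 0.90 (SE 0.18, adjusted p = 1.60e-04), and the RBP4 call was lost without RBP4 replicate 1 or 4. Zfas1 changed by -0.58 (SE 0.35, adjusted p = 0.181) in the RBP4 line, and by -0.59 (adjusted p = 0.0453) with the pool as a block. The gene that was lower in each line was Oip5os1, with -2.05 (SE 0.23, adjusted p = 1.27e-06) and -2.19 (SE 0.13, adjusted p = 1.26e-10). Over all annotated lncRNA genes the medians were -0.92 and -0.94, with 498 of 1448 and 693 of 1438 lower, beside -0.30 and -0.28 over protein-coding genes. Whether the members differ from these lists was not tested.

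The proteins that build the bodies around Malat1 and Neat1 are translated from cytoplasmic mRNAs, and 12 of these genes were tested. In TRAP against WCH, 1 of the 12 was lower in each line and 3 were higher in the VGAT line, with medians of -0.17 and 0.29. Sfpq, a core paraspeckle protein, changed by 0.32 (SE 0.23, adjusted p = 0.270) and 0.53 (SE 0.12, adjusted p = 6.45e-04). Hnrnpk changed by 0.29 (SE 0.17, adjusted p = 0.178) and 0.56 (SE 0.11, adjusted p = 1.43e-04). In the RBP4 line both passed under other scalings, Sfpq at 0.62 with DESeq2 and under TMM (adjusted p = 0.0306 and 0.0400) and Hnrnpk at 0.57 and 0.58 (adjusted p = 0.00380 and 0.0109). The speckle protein genes Son and Srrm2 did not pass in either line, though Son passed in the RBP4 line with the pool as a block (adjusted p = 0.0162) and without RBP4 replicate 5. Of the protein-coding genes of the imprinted domains, 6 and 5 were tested, and in each line 1 was lower and 1 higher. The one that was higher was Tssc4, by 0.56 (SE 0.19, adjusted p = 0.0194) and 0.83 (SE 0.13, adjusted p = 1.98e-05), and its RBP4 call was lost without any 1 of replicates 2, 3 and 4. Dio3 passed in the RBP4 line with the pool as a block, at 0.85 (adjusted p = 0.0151), and Cdkn1c, at a log2 fold change of -0.63 (SE 0.27, adjusted p = 0.0660), passed there without RBP4 replicate 2. Dlk1 and Rtl1, inside the duplicated stretch, had no counts.

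Comparing SNF with WCH asks which RNAs are carried into the synaptosomal preparation of all cells. Malat1 was 5627, 3753, 1447, 3634 and 11618 cpm in RBP4 SNF and 5411, 2869.9, 1518, 9025 and 11521 cpm in VGAT SNF. Replicate 3 was the lowest and replicate 5 the highest in both lines. The log2 fold change was -1.99 (SE 0.49, adjusted p = 0.00232) and -1.50 (SE 0.63, adjusted p = 0.0406), the former being -2.61 (adjusted p = 7.34e-05) without RBP4 replicate 5. As a share of WCH of the same pool, the median was 19.8% and 26.1%, beside 6.17% and 11.9% in TRAP. In all, 5 of 7 members were lower in RBP4 SNF, where 36.1% of all genes tested were, and 2 of 7 in VGAT SNF, where 45.2% were. Members had a median of -1.51 and -1.22, beside -0.50 and -0.52 over all genes. With the pool as a block 4 of 7 were lower in VGAT SNF, Meg3 and Snhg11 being added at -1.46 (adjusted p = 0.0141) and -1.57 (adjusted p = 0.00453). The same 2 also passed without VGAT replicate 5, at -1.62 (adjusted p = 0.0321) and -1.73 (adjusted p = 0.0278). The Malat1 call in VGAT SNF was lost without any 1 of replicates 1 to 4 (adjusted p = 0.0700 to 0.0949), under TMM (adjusted p = 0.0911) and with DESeq2 (adjusted p = 0.122).

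Miat passed in both lines. It was 29.1, 20.5, 6.26, 19.7 and 58.3 cpm in RBP4 SNF and 17.3, 15.3, 7.82, 30.3 and 40.7 cpm in VGAT SNF, below every WCH library in each line, as 27.1% and 36.9% of all genes were. It changed by -1.67 (SE 0.50, adjusted p = 0.00820) and -1.60 (SE 0.48, adjusted p = 0.00606). Snhg11 was 1892, 1042, 324, 684 and 3109 cpm in RBP4 SNF and 668, 441, 310.0, 1822 and 2585 cpm in VGAT SNF, and changed by -1.53 (SE 0.52, adjusted p = 0.0193) and -1.37 (SE 0.69, adjusted p = 0.0874). Meg3 was 8.69, 5.26, 1.47, 4.58 and 16.6 cpm and 4.25, 2.53, 1.56, 9.73 and 13.4 cpm, with -1.51 (SE 0.52, adjusted p = 0.0194) and -1.22 (SE 0.70, adjusted p = 0.131). For Snhg11 and Meg3 SNF was below WCH of the same pool in 5 of 5 pools of each line although the groups overlapped. Mirg was 5.54, 6.36, 1.27, 6.23 and 10.8 cpm and 5.96, 3.33, 1.45, 8.01 and 13.99 cpm, with -1.17 (SE 0.43, adjusted p = 0.0286) and -0.52 (SE 0.61, adjusted p = 0.468). In the RBP4 line the calls on 3 members depended on single pools, as Mirg did not pass without any 1 of replicates 1 to 4 (adjusted p = 0.0613 to 0.131), under TMM (adjusted p = 0.0939) or with DESeq2 (adjusted p = 0.117). Without replicate 2 or 3, Snhg11 had -1.24 (adjusted p = 0.115) and -1.19 (adjusted p = 0.0782) and Meg3 -1.42 (adjusted p = 0.0674) and -1.26 (adjusted p = 0.0704), and with DESeq2 Snhg11 had an adjusted p of 0.0818.

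Neat1 and Kcnq1ot1 did not pass in either line. Neat1 was 6.84, 11.2, 2.25, 7.96 and 12.7 cpm in RBP4 SNF and 6.34, 4.49, 2.23, 3.22 and 9.88 cpm in VGAT SNF, and replicate 3 was the lowest in each line. Its changes were -0.22 (SE 0.53, adjusted p = 0.746) and -0.35 (SE 0.53, adjusted p = 0.579), and the sign of both depended on the scaling. Kcnq1ot1 was 315, 63.0, 23.6, 61.3 and 223 cpm and 45.2, 31.9, 14.1, 395 and 376 cpm, with 315 cpm in RBP4 replicate 1 and 395 and 376 cpm in VGAT replicates 4 and 5. It changed by 0.53 (SE 0.82, adjusted p = 0.602) and 1.41 (SE 0.85, adjusted p = 0.152), and with the pool as a block the RBP4 value was -0.06 (adjusted p = 0.948). The mRNAs of paraspeckle and speckle proteins were lower in SNF for 12 of 12 genes in the RBP4 line and 11 of 12 in the VGAT line, with medians of -1.06 and -0.96. Son changed by -0.83 (SE 0.22, adjusted p = 0.00444) and -0.54 (SE 0.18, adjusted p = 0.0102), and Sfpq by -1.05 (SE 0.23, adjusted p = 8.90e-04) and -1.12 (SE 0.12, adjusted p = 2.09e-07). Of the further long noncoding RNAs, 5 of 9 and 3 of 10 were lower in SNF, with medians of -0.81 and -0.43. In the imprinted domains Cd81 was higher in SNF, by 1.35 (SE 0.20, adjusted p = 9.27e-05) and 1.41 (SE 0.12, adjusted p = 5.66e-08). Dio3, at the end of the Dlk1-Dio3 domain, changed by 1.35 (SE 0.55, adjusted p = 0.0433) and 1.39 (SE 0.45, adjusted p = 0.00926). Glial and endothelial markers summed to 23323 to 42898 cpm in RBP4 SNF and 24399 to 42432 cpm in VGAT SNF, above WCH, and their part in these changes was not tested.

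**Figure D3:**
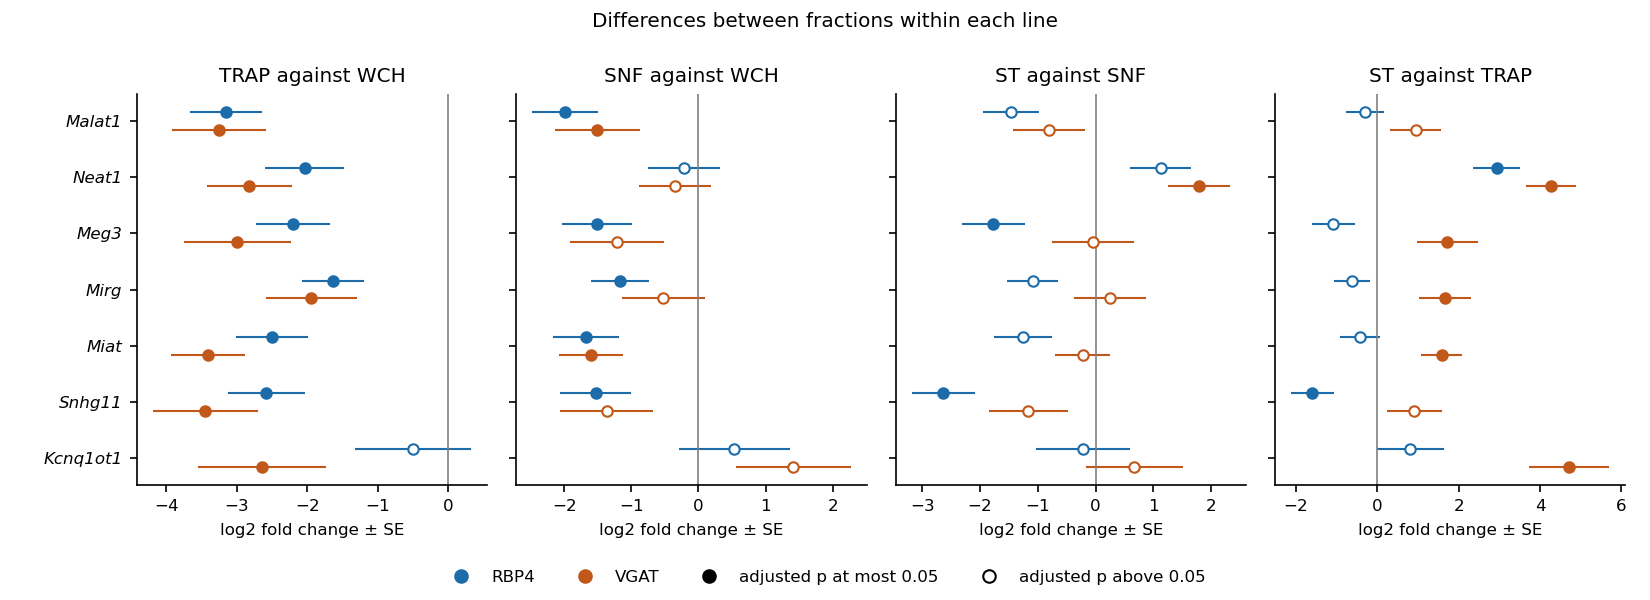
Log2 fold changes with standard errors of the 7 noncoding RNAs in the 4 comparisons between fractions, by line, from edgeR's quasi-likelihood test. Filled points passed an adjusted p of 0.05. Filled points lie below 0 for TRAP against WCH, and Neat1 lies above 0 in both comparisons with ST.

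Comparing ST with SNF keeps the preparation and adds the pull-down of tagged ribosomes. Snhg11 and Meg3, 2 of 7 members, were lower in RBP4 ST, where 5.46% of all genes tested were, and 0 were higher, beside 5.64% of all genes. Snhg11 was 193, 262, 135, 191 and 349 cpm in RBP4 ST, a change of -2.64 (SE 0.55, adjusted p = 0.00274) or a fall of 6.23-fold, and every ST library was below SNF of its pool. Meg3 was 1.55, 1.98, 1.42, 4.41 and 1.32 cpm in RBP4 ST, with -1.77 (SE 0.54, adjusted p = 0.0366), and did not pass without any 1 of replicates 1, 2, 3 and 5 (adjusted p = 0.0526 to 0.162), without the last of which it was -1.10 (adjusted p = 0.0787), or with no genes left out (adjusted p = 0.0651). With the pool as a block 4 members were lower, Malat1 and Miat being added at -1.27 (adjusted p = 0.0370) and -1.10 (adjusted p = 0.0438). Malat1 was 898, 2035, 1302, 1982 and 3254 cpm in RBP4 ST and 1994, 2077, 681, 4199 and 8454 cpm in VGAT ST. ST was below SNF of the same pool for Malat1 in 5 of 5 pools of each line, with changes of -1.46 (SE 0.48, adjusted p = 0.0510) and -0.80 (SE 0.62, adjusted p = 0.371). The former, just above the threshold, passed with DESeq2 (adjusted p = 0.00981), under TMM (0.0485), by the likelihood ratio test (0.0202), with no filter (0.0330) and without RBP4 replicate 5 (0.0438), and Miat also passed with DESeq2 (adjusted p = 0.0480).

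In the VGAT line Neat1 was higher in ST than in SNF, the only 1 of 7 members that passed, where 16.3% of all genes tested were higher and 11.2% lower. Under TMM the genes higher and lower in VGAT ST went from 2771 and 1905 to 1987 and 2480. Neat1 was 29.7, 17.1, 1.69, 9.45 and 33.7 cpm in VGAT ST and 20.3, 33.9, 8.08, 16.1 and 11.2 cpm in RBP4 ST. ST was above SNF of the same pool in 4 of 5 pools of each line, the exceptions being VGAT replicate 3 and RBP4 replicate 5. Its changes were 1.80 (SE 0.53, adjusted p = 0.0141) in the VGAT line, or 3.47-fold, and 1.13 (SE 0.53, adjusted p = 0.184) in the RBP4 line. Without VGAT replicate 1 the former was 1.63 (adjusted p = 0.0798), and without RBP4 replicate 5 the latter was 1.46 (adjusted p = 0.0350). Snhg11 was 159.9, 202, 76.2, 577 and 1582 cpm in VGAT ST and changed by -1.17 (SE 0.69, adjusted p = 0.227), and with the pool as a block by -1.39 (adjusted p = 0.0204). The changes of Malat1, Meg3, Mirg, Miat and Kcnq1ot1 in VGAT ST against SNF lay between -0.80 and 0.67. Oligodendrocyte markers summed to 12186 to 18772 cpm in RBP4 SNF and 31796 to 44757 cpm in RBP4 ST, and to 14879.6 to 18033 and 32577 to 54690.3 cpm in the VGAT line, without overlap. Of these 6 markers 3 were higher in each line and 1 was lower in the VGAT line, and of 5 endothelial markers 2 were higher in each line. Astrocyte markers had medians of -0.54 and -0.49 and microglia markers of -0.78 and -0.34. Of the further long noncoding RNAs 2 of 9 and 1 of 10 were lower in ST than in SNF. Cdkn1c, a growth inhibitor encoded in the Kcnq1ot1 domain, was higher in ST, by 1.50 (SE 0.27, adjusted p = 8.82e-04) and 1.17 (SE 0.24, adjusted p = 8.39e-04), while Cd81 was lower, by -0.73 (SE 0.19, adjusted p = 0.0160) and -0.83 (SE 0.12, adjusted p = 1.76e-05). None of the 23 glial and endothelial markers was at 0 in an SNF or ST library, and their part in the change of Neat1 was not tested.

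Comparing ST with TRAP sets ribosome-bound RNA of the synaptosomal preparation against that of the whole cell. In the RBP4 line Neat1 was the 1 member of 7 that was higher, where 26% of all genes tested were, and Snhg11 the 1 that was lower, where 29.1% were. Neat1 rose by 2.94 (SE 0.57, adjusted p = 1.61e-04), or 7.67-fold, with every RBP4 ST library above every RBP4 TRAP library, as for 13.6% of all genes. Snhg11 changed by -1.59 (SE 0.53, adjusted p = 0.0131). Without RBP4 replicate 4, whose ST library had the high Slc32a1 level, Neat1 changed by 2.76 (adjusted p = 0.00201) and Snhg11 by -1.75 (adjusted p = 0.0174). Meg3 was then lower too, at -1.67 (adjusted p = 0.0316), beside -1.07 (SE 0.54, adjusted p = 0.0937) with all libraries. Without RBP4 replicate 5 Neat1 changed by 4.20 (adjusted p = 8.35e-07) and Snhg11 by -1.0001 (adjusted p = 0.0439). In the VGAT line 5 of 7 members were higher, where 37.5% of all genes tested were, and 0 lower, beside 34%. Neat1 rose by 4.27 (SE 0.62, adjusted p = 2.46e-06), or 19.3-fold, and Kcnq1ot1 by 4.72 (SE 0.98, adjusted p = 2.05e-04), or 26.3-fold. Kcnq1ot1 was 74.4, 90.2, 15.6, 586 and 609 cpm in VGAT ST, with replicates 4 and 5 highest and replicate 3 within the range of TRAP. Without VGAT replicate 3 Neat1 rose by 5.03 (adjusted p = 4.35e-08), and without VGAT replicate 4 Kcnq1ot1 rose by 4.13 (adjusted p = 0.00328). Mirg changed by 1.67 (SE 0.65, adjusted p = 0.0251), Miat by 1.59 (SE 0.50, adjusted p = 0.00729) and Meg3 by 1.73 (SE 0.75, adjusted p = 0.0449). These 3 calls were lost without VGAT replicate 5, which gave 1.32 (adjusted p = 0.0749) for Mirg, 0.80 (adjusted p = 0.118) for Miat and 0.44 (adjusted p = 0.588) for Meg3. Mirg was also lost without VGAT replicate 1 or 2 (adjusted p = 0.0599 and 0.0673), and Meg3 without any 1 of VGAT replicates 1, 2 and 4 (adjusted p = 0.0644 to 0.0760) or with no genes left out (adjusted p = 0.0591). Malat1 changed by 0.95 (SE 0.62, adjusted p = 0.175), and by 1.50 (adjusted p = 0.0324) without VGAT replicate 3.

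Kcnq1ot1 in RBP4 ST was 140.1, 108, 99.6, 111 and 133 cpm, a narrower range than in RBP4 TRAP. Its change was 0.81 (SE 0.83, adjusted p = 0.420) with all libraries, 3.83 (adjusted p = 6.64e-06) without RBP4 replicate 5, and 2.49 (adjusted p = 0.0112) with the pool as a block. The remaining levels in ST were low for the Dlk1-Dio3 members and Miat. Mirg was 2.13, 1.32, 3.10, 4.90 and 2.82 cpm in RBP4 ST and 4.60, 6.52, 1.69, 6.10 and 20.4 cpm in VGAT ST, and Miat was 6.67, 11.3, 5.69, 15.98 and 16.5 cpm and 12.6, 9.07, 7.37, 15.9 and 51.3 cpm. Meg3 was 1.61, 2.61, 0.424, 4.54 and 21.7 cpm in VGAT ST, where 1 count equalled between 0.0554 and 0.0847 cpm. Replicate 5 was the highest VGAT ST library for each of them. Oligodendrocyte markers summed to 388 to 5508 cpm in RBP4 TRAP and 31796 to 44757 cpm in RBP4 ST, and all 23 glial and endothelial markers were higher in ST than in TRAP in each line. Their part in the rise of Neat1 and Kcnq1ot1 from TRAP to ST was not tested. Among the further long noncoding RNAs 1 of 9 was higher in ST than in TRAP in the RBP4 line and 3 of 10 in the VGAT line, where 2 were lower, with medians of -0.25 and -0.22. Of the 12 paraspeckle and speckle protein genes, 9 were lower in ST than in TRAP in each line, with medians of -0.90 and -0.96.

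The design also compares layer 5 pyramidal with GABAergic neurons. In WCH, 0 of 7 members differed between the lines (0.00592% of genes tested were higher and as many lower), with log2 fold changes of RBP4 over VGAT between 0.26 and 0.55 and an adjusted p of 1 for each. In TRAP only Kcnq1ot1 passed, with 2.69 (SE 0.90, adjusted p = 0.0240), where 12.9% of all genes tested were higher in the RBP4 line. That value rests on RBP4 replicate 5, since without it the change was -0.37 (adjusted p = 0.730). The call was also lost without any 1 of VGAT replicates 1, 2 and 4 (adjusted p = 0.0629 to 0.0673), and without VGAT replicate 5 the value was 3.40 (adjusted p = 0.0131). The other 6 members changed by 0.36 to 1.31, and of these Miat passed with DESeq2, under TMM and by the likelihood ratio test (adjusted p = 0.0496, 0.0464 and 0.0413) and without RBP4 replicate 2 or VGAT replicate 3 (0.0447 and 0.0252), and Neat1 without VGAT replicate 3 (0.0434). In ST 0 of 7 passed, with changes between -1.51 and -0.03, beside 0.0592% of genes higher and 0.266% lower. The change from TRAP to ST differed between the lines for Kcnq1ot1, by -3.91 (SE 1.23, adjusted p = 0.0360) for RBP4 less VGAT, where 5.79% of genes tested were lower by that measure and 5.02% higher. Without RBP4 replicate 5 it was -0.89 (adjusted p = 0.631), without VGAT replicate 4 -3.32 (adjusted p = 0.139), without VGAT replicate 1 or 2 it did not pass (adjusted p = 0.0645 and 0.0679), and with the pool as a block -1.74 (adjusted p = 0.352). Neat1, Meg3, Mirg, Miat, Malat1 and Snhg11 did not pass, although with the block Mirg and Snhg11 did, at -2.35 (adjusted p = 0.0346) and -1.94 (adjusted p = 0.0444). Without VGAT replicate 3 Meg3, Mirg, Miat and Snhg11 passed, with changes of -2.58 to -3.34 (adjusted p = 0.0186 to 0.0274), Meg3 also passed without RBP4 replicate 4 (-3.40, adjusted p = 0.0357), and the same 4 passed by the likelihood ratio test and with no filter. For TRAP against WCH the lines differed for 0 of 7 members, beside 5.63% of genes higher and 6.97% lower. Between SNF and WCH, and likewise between ST and SNF, they differed for 0 of all 17728 genes in edgeR's test, with 94 and 502 genes at an unadjusted p under 0.05, none of them members. A p above the threshold does not show that the lines were alike.

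Malat1 and Neat1 are neighbours transcribed from the same strand, and their ratio within a library does not depend on library size. Per 1000 reads of Malat1, Neat1 had 0.215, 0.491, 0.984, 0.221 and 0.683 reads in RBP4 WCH and 0.253, 0.540, 0.532, 0.282 and 0.451 in VGAT WCH. In TRAP it had 0.397, 1.14, 0.638, 0.884 and 1.41 in the RBP4 line and 1.48, 0.304, 0.671, 0.362 and 0.409 in the VGAT line, and in SNF 1.22, 2.97, 1.55, 2.19 and 1.10 and 1.17, 1.56, 1.47, 0.357 and 0.858. In ST the numbers were 22.6, 16.7, 6.20, 8.14 and 3.43 and 14.9, 8.21, 2.49, 2.25 and 3.98. Each ST library was thus above each library of the other fractions of its line. The ratios were compared on the log2 scale, with 0.5 added to each count, by 2-sided exact permutation tests over libraries. These tests treated the libraries as independent and ignored that the fractions come from the same pools. A paired test of the ratios was not run, so the p-values hold for the unpaired scheme only. The mean ratio was higher in ST than in SNF by 2.44 (exact permutation p = 0.00794, adjusted p = 0.0317) in the RBP4 line and by 2.33 (exact permutation p = 0.00794, adjusted p = 0.0317) in the VGAT line. Against TRAP it was higher by 3.46 (exact permutation p = 0.00794, adjusted p = 0.0317) and by 3.09 (exact permutation p = 0.00794, adjusted p = 0.0317).

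From WCH to SNF the Neat1 to Malat1 ratio rose by 1.95 (exact permutation p = 0.00794, adjusted p = 0.0317) in RBP4 pools and by 1.30 (exact permutation p = 0.0317, adjusted p = 0.109) in VGAT pools. From WCH to TRAP it changed by 0.93 (exact permutation p = 0.143, adjusted p = 0.286) and by 0.55 (exact permutation p = 0.270, adjusted p = 0.381). The family held 24 tests on 3 ratios, of which 6 passed after Benjamini-Hochberg adjustment and 7 before it, and 0.00794 is the smallest p that 5 against 5 libraries can give. Each of the 6 showed its direction in 5 of 5 pools. For Mirg to Meg3, both of the Dlk1-Dio3 domain, the ratio was higher in SNF than in WCH of the VGAT line by 0.81 (exact permutation p = 0.00794, adjusted p = 0.0317), with the limit on Meg3 counts given above. For Meg3 to Malat1, 0 of 8 tests passed.

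**Figure D4:**
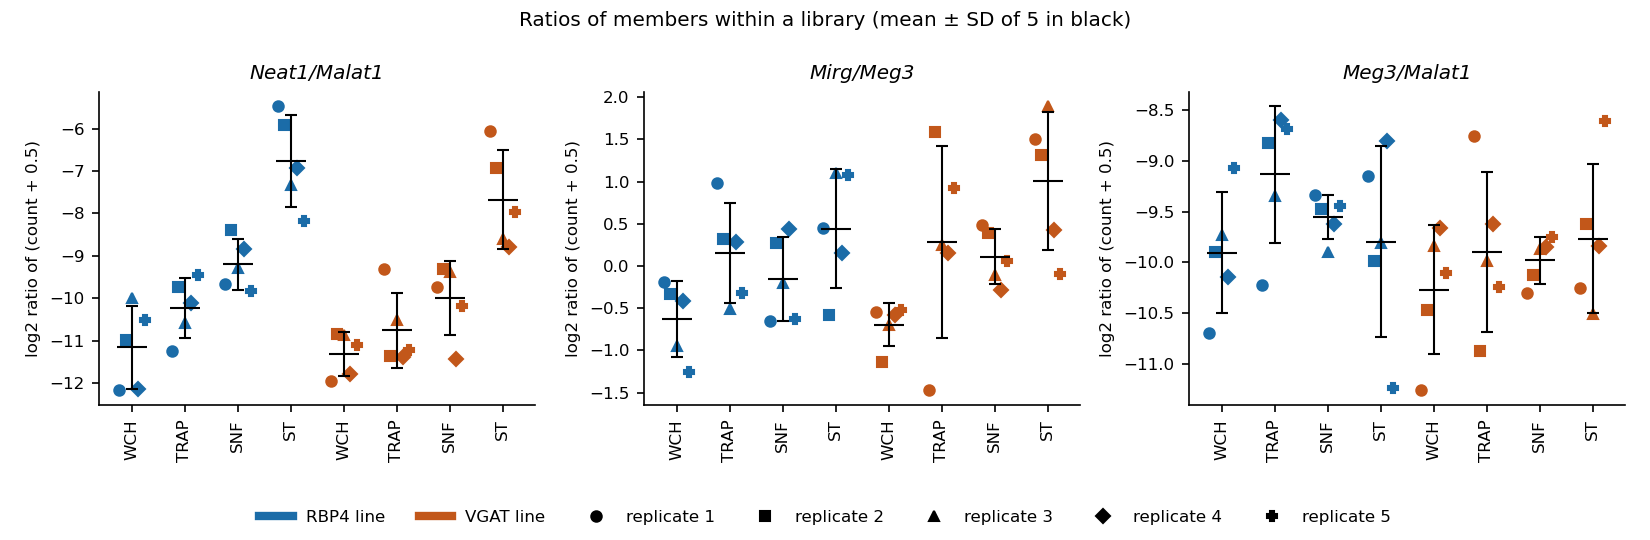
Log2 ratio of counts (0.5 added to each) of Neat1 to Malat1, Meg3 to Malat1 and Mirg to Meg3 in each library, by fraction and line, with the mean ± SD of 5 in black. The Neat1 to Malat1 ratio has its means at -6.76 (RBP4) and -7.67 (VGAT) in ST, above -9.20 and -10.01 in SNF, and at -11.16 and -11.31 in WCH.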

How the data were processed

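Forebrain pools of 2 mouse lines gave 4 fractions each, or 40 libraries in 8 groups of 5, and titles gave each library its group and number. The authors made libraries from amplified, oligo(dT)-primed cDNA, aligned 50-base single reads with STAR 2.0.4b to an Ensembl assembly and deposited the counts of uniquely aligned, unambiguous reads per gene from featureCounts 1.4.5. The CPM values that the authors deposited divide these counts by the library total, and the RPKM values as deposited divide CPM by gene length. Both served only as a check and were recomputed from the counts with differences of at most 4.07e-10 and 2.76e-10.

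Library sizes were the totals after 37 mitochondrial and 353 rRNA or tRNA genes (GENCODE M21, GRCm38) had been left out, with no further factor. The cpm printed here divide by these sizes, and RPKM divide those cpm by the deposited gene length. Groups were compared with edgeR 4.0.16 in R 4.3.3 (glmQLFit and glmQLFTest, group as the only variable, Benjamini-Hochberg adjustment over all genes tested, threshold 0.05). A fit within a line took its 20 libraries, and a gene entered with 0.5 cpm or more in 3 or more of them. A fit between lines took 30 libraries (WCH, TRAP and ST), filtered on TRAP and ST, or 40 where SNF entered. Comparisons that share a fraction share its libraries. Rian did not pass the filter. Ratios of noncoding RNAs within a library were compared by unpaired, 2-sided exact permutation tests with 0.5 added to each count. The family was planned as 32 tests and became 24, since Rian could not be measured.

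The noncoding RNAs, context lists and markers were chosen with earlier results of these data known. All 8 noncoding RNAs and the 4 context genes with the highest mean cpm per list were to be named, and of the latter the text gives those that a comparison turns on. Rmst, Peg13, Sox2ot, Snhg1, Snhg8 and Norad were not matched by symbol. By the study's methods the same number within a line marks 1 pool, which was checked by correlating deviations from group means. For TRAP with WCH, same-pool means were 0.274 (RBP4) and 0.308 (VGAT), different pools giving -0.067 and -0.079. SNF with WCH and ST with SNF had same-pool means of 0.221 to 0.475, different pools giving -0.116 to -0.055. For ST with TRAP, same-pool means were only -0.0093 (RBP4) and 0.061 (VGAT), different pools giving -0.0019 and -0.015. The direct check thus did not show the pairing of ST with TRAP in RBP4 pools, and showed it only weakly in VGAT pools. The alternatives were TMM, DESeq2 1.42.0, the likelihood ratio test, no filter, no genes left out, the noncoding RNAs left out of library sizes, blocking by pool (between the lines in 1 fraction, by replicate number), leaving out each pool and, for ratios, 1 added to each count. The edgeR fit was tested on counts simulated with 1 dispersion for all genes, independent libraries and no pool effect. That test checks the code and does not bear on calls for the noncoding RNAs, which vary together between libraries. Remaining steps ran in Python 3.11.15 (scipy 1.17.1, matplotlib 3.10.9, numpy 2.4.6, pandas 2.3.3). How the counting treated near-identical copies elsewhere was not analysed here.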

Additional observations from a re-analysis of the deposited data

Results flagged for a closer look

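In a group of 5 libraries, a library was singled out when its gap to the nearest other exceeded 0.71 of the range of the group. Of 80 groups of 5 tested in this way 12 had such a library. The limit gives about 1 in 20 only for independent, normally distributed values. The cpm were not transformed and the noncoding RNAs varied together between libraries, so the 12 cannot be compared with that share. No explanation for any of them was tested.

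Of the 12, 6 were RBP4 TRAP replicate 5, the highest library of its group. It had 7.51 cpm of Neat1, against 0.834 to 1.45 in the other 4, and 12.9 cpm of Meg3, against 1.73 to 3.48. Mirg was 10.4 cpm, against 2.44 to 3.46, and Miat 44.0 cpm, against 6.29 to 9.24. Snhg11 was 1851 cpm, against 244 to 515, and Kcnq1ot1 305 cpm, against 3.71 to 11.7. Markers of oligodendrocytes were also highest in this library, as given in the report.

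VGAT ST replicate 5 was far above the other 4 for 3 noncoding RNAs, with 21.7 cpm of Meg3 against 0.424 to 4.54, 20.4 cpm of Mirg against 1.69 to 6.52, and 51.3 cpm of Miat against 7.37 to 15.9. Malat1 in RBP4 WCH replicate 1 was 34101 cpm, against 14901 to 18995 in the others. Meg3 in RBP4 ST replicate 4, the library with the high Slc32a1 level, was 4.41 cpm, against 1.32 to 1.98. The log2 ratio of Mirg to Meg3 in VGAT WCH was lowest in replicate 2, at -1.14, against -0.69 to -0.52.

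The change of Kcnq1ot1 from TRAP to ST differed between the lines, by -3.91 on the log2 scale for RBP4 less VGAT (edgeR adjusted p = 0.0360). This test of the difference did not pass without RBP4 replicate 5 (-0.89) or with the pool as a block (-1.74).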

How the results depend on the processing

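The fall of Malat1, Neat1, Meg3, Miat and Snhg11 from WCH to TRAP and the rise of Neat1 from TRAP to ST kept their direction and passed under each alternative run. Over single values, 1842 kept direction and side of the threshold under the alternatives, 57 newly passed, 78 no longer passed and 56 changed sign. The cause of the changes below was not tested, except that leaving out a pool also leaves fewer libraries.

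Counts of noncoding RNAs that passed moved as follows. Of those lower in SNF than in WCH of the RBP4 line, 5 at first, DESeq2 gave 3. For the VGAT line 2 became 1 with DESeq2, 1 with TMM and 4 with the pool as a block. For those lower in RBP4 ST than SNF, 2 became 4 with DESeq2, 1 with no genes left out and 4 with the block, and in the VGAT line 0 became 1 with the block. Those higher in RBP4 ST than TRAP went from 1 to 2 with the block. Between the lines in TRAP the 1 higher became 2 with DESeq2, 2 with TMM, 2 with the likelihood ratio test and 0 when blocked by replicate number. For ST against TRAP between the lines the 1 lower became 5 with the likelihood ratio test, 5 with no filter and 2 with the block.

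Counts over all genes tested moved more with the scaling. DESeq2 and TMM gave 3536 and 3296 genes higher in RBP4 TRAP than WCH, against 1427. For SNF against WCH in the RBP4 line, genes higher were 3773 with DESeq2 and 1441 with no genes left out, against 2286, and genes lower 2515 with DESeq2 and 3048 with TMM, against 6161. The VGAT line had 3929 and 4747 genes lower with DESeq2 and TMM, against 7680. TMM moved the balance of RBP4 SNF against WCH, from 2286 higher and 6161 lower to 3284 and 3048, and of VGAT SNF, from 3283 and 7680 to 4187 and 4747. For ST against SNF with no genes left out, 1757 genes were higher and 317 lower in the RBP4 line (962 and 931 before) and 4726 and 917 in the VGAT line (2771 and 1905 before), while DESeq2 gave 3017 lower in the VGAT line and the block 1452 lower in the RBP4 line. Between the lines in ST, 10 genes higher became 77 with DESeq2 and 19 with the likelihood ratio test, which also gave 121 lower, against 45. In WCH 1 gene higher became 3, 3 and 0 with DESeq2, the likelihood ratio test and no genes left out. The likelihood ratio test gave 4 genes lower for ST against SNF between the lines, against 0.

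Some log2 fold changes changed sign. Neat1 between the lines in ST went from -0.033 to 0.14 with DESeq2, 0.10 with TMM and 0.16 when blocked by replicate number. In SNF against WCH it became 0.17 and 0.089 in the RBP4 line with DESeq2 and TMM, and 0.062 in the VGAT line with DESeq2. Kcnq1ot1 with the block was, in the RBP4 line, -0.059 between SNF and WCH and 0.33 between ST and SNF. With no genes left out, ST against SNF in the VGAT line was 0.19 for Meg3 and 0.00062 for Miat. For TRAP against WCH, Cd81 was 0.020 and 0.023 in the RBP4 line with DESeq2 and TMM and -0.023 in the VGAT line with the noncoding RNAs left out of library sizes, where Son was 0.090 and 0.11 and Srrm2 0.11 and 0.14 with DESeq2 and TMM.

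Leaving out each pool in turn gave these ranges. Counts of noncoding RNAs ranged from 2 to 5 and 1 to 4 lower for SNF against WCH (RBP4, VGAT), 1 to 2 lower and 0 to 1 higher for RBP4 ST against SNF, 0 to 1 higher for VGAT ST against SNF, 1 to 2 higher and 1 to 2 lower for RBP4 ST against TRAP, 2 to 6 higher for VGAT ST against TRAP, 0 to 3 higher between the lines in TRAP and 0 to 5 lower for ST against TRAP between the lines. Counts over all genes ranged from 764 to 1566 higher for RBP4 TRAP against WCH, 462 to 1158 higher and 258 to 961 lower for RBP4 ST against SNF, 1 to 22 higher and 6 to 138 lower between the lines in ST, 0 to 2 higher and 0 to 1 lower in WCH, and 651 to 1213 lower for ST against TRAP between the lines. Between the lines, log2 fold changes ranged from -0.40 to 0.30 for Neat1 in ST and, in TRAP, from -0.37 to 3.40 for Kcnq1ot1 and -0.19 to 0.66 for Malat1. The differences between the lines ranged for SNF against WCH from -0.71 to 0.12 for Meg3, -0.52 to 0.23 for Miat, -0.14 to 0.68 for Neat1 and -0.66 to 0.20 for Snhg11, and for TRAP against WCH from -0.88 to 2.78 for Kcnq1ot1, -0.55 to 0.42 for Malat1, -0.33 to 0.58 for Mirg and -0.32 to 1.23 for Neat1. Within lines the ranges were -0.037 to 0.81 for Kcnq1ot1 and -0.40 to 0.33 for Neat1 in RBP4 SNF against WCH, -0.43 to 0.28 for Kcnq1ot1 in RBP4 ST against SNF, -0.98 to 0.25 for Meg3 in VGAT ST against SNF, -0.72 to 0.33 for Miat in RBP4 ST against TRAP and -0.038 to 0.039 for Cd81 in VGAT TRAP against WCH. The log2 ratio of Meg3 to Malat1 ranged from -0.51 to 0.14 and -0.020 to 0.43 in ST against SNF (RBP4, VGAT), -0.25 to 0.54 in VGAT ST against TRAP and -0.16 to 0.57 in VGAT TRAP against WCH, and that of Mirg to Meg3 from -0.045 to 0.58 in RBP4 ST against TRAP. The number of ratios that passed was 0 without any 1 pool. In the line that lost the pool, groups held 4 libraries, and the smallest p they allow is larger. Tests in the other line kept 5 libraries, but their adjusted p depends on how many of the 24 tests share the smallest p. The 6 calls on ratios, all at an adjusted p of 0.0317 by exact permutation tests, thus rest on both lines being adjusted together. The count of 0 does not measure the stability of single ratios.

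Within a line the pool as a block is the paired design, and the calls it changed are given beside the results. It changed no other call on the 7 noncoding RNAs within a line. For the difference between the lines of a change between fractions the block was also the pool. Between the lines in 1 fraction each pool belongs to 1 line, so the block there was the replicate number. Those numbers name different pools. Same-numbered libraries had mean correlations of deviations from their group means of 0.190 in WCH, 0.146 in TRAP, 0.219 in SNF and 0.0438 in ST. Libraries of different numbers had -0.0458, -0.0324, -0.0435 and -0.0102. Single same-numbered pairs ranged from -0.22 to 0.59, -0.03 to 0.40, -0.23 to 0.75 and -0.48 to 0.54. Whether same-numbered pools of the lines share more than a number was not tested. A single count equalled 0.0455 to 0.112 cpm. Standard errors in TRAP against WCH were 0.44 to 0.76 for Meg3, Mirg and Neat1, which have few counts, beside 0.51 and 0.67 for Malat1, which has many.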

Other observations

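The levels of the noncoding RNAs varied together from library to library. Over all 40 libraries, the correlation of log2 cpm between 2 of them had a median of 0.788 over 21 pairs (range 0.314 to 0.955), and after subtraction of the group means the median was 0.833 (0.598 to 0.920). These values are descriptive, since the points share libraries, fractions and depth, and the libraries that stand apart enter both.

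Of 10784 genes at a mean of 5 cpm or more, those most like each noncoding RNA by correlation over the 40 libraries were as follows. For Malat1 they were Mir124a-1hg (0.957), Ftx (0.940) and Slc38a6 (0.940), for Miat Nktr (0.970), Ftx (0.962) and Slc38a6 (0.959), and for Snhg11 Tubgcp4 (0.961), Ftx (0.961) and BC030499 (0.959). Meg3 was closest to Ftx (0.952), BC030499 (0.944) and Leng8 (0.944), and Mirg to Pabpn1 (0.946), Rgs11 (0.886) and Slc2a4rg-ps (0.882). Ftx, a long noncoding RNA of the X-inactivation centre, was thus among the 3 nearest genes of 4 of the 7. Neat1 had other neighbours and lower values, with Hectd4 (0.861), Rnf213 (0.852) and Ptprb (0.844). Kcnq1ot1 was closest to the genes 4930480K15Rik (0.975), 5530401A14Rik (0.943) and Gm14776 (0.928).

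Of the 8 genes 7 belong to the annotated lncRNA class of 5311 genes, Snhg11 being annotated as protein coding. The share of the counts on that class taken by these 7 had a median of 54.3% in WCH (43.3% to 64.8%), 24.3% in SNF (8.15% to 46.3%), 10.4% in ST (3.58% to 29.3%) and 8.55% in TRAP (2.25% to 22.9%).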
